A study of Mus musculus with 6 samples.

Results

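The endothelium lines every blood vessel of the heart, and 10 genes by which its cells are recognised were followed here in RNAseq of whole mouse hearts. They are *Pecam1*, *Cdh5*, *Kdr*, *Flt1*, *Tie1*, *Tek*, *Vwf*, *Emcn*, *Eng* and *Egfl7*, chosen by name as established endothelial genes, and each was matched by its Ensembl identifier to 1 of the 16018 genes of the deposited table. The hearts came from female mice of 4 to 5 weeks of age, 3 of them KOb/c and 3 WT. KOb/c mice lack the B and C variants of NBCe1, the electrogenic sodium-bicarbonate cotransporter that *Slc4a4* encodes. The deletion is present in all cells of the body rather than in cardiomyocytes or endothelium alone, and both genotypes came from heterozygous parents on a C57BL/6J background. Each library was made from 1 heart that holds cardiomyocytes, fibroblasts, mural cells, blood cells and endothelium together, so that fewer endothelial cells and less RNA per endothelial cell cannot be told apart.

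Vessels are built and kept by a small number of signalling systems, and the 10 genes cover the main ones. VEGF-A signals through *Kdr* (VEGF receptor 2), while *Flt1* (VEGF receptor 1) binds the same ligand tightly, signals weakly and also exists as a soluble form that holds ligand back. Angiopoietins made by mural cells and by endothelium bind *Tek* (TIE2), whose activity is modulated by its partner receptor *Tie1*. *Eng* (endoglin) is a co-receptor for BMP9 and related ligands. *Cdh5* (VE-cadherin) and *Pecam1* (CD31) hold neighbouring cells together, *Emcn* (endomucin) coats the surface of capillaries and veins, *Vwf* is the clotting glycoprotein stored in endothelial granules, and *Egfl7* is a secreted matrix-bound protein. Many endothelial genes are driven by transcription factors of the ETS family, which bind sequences around the letters GGAA.

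The windows upstream of *Flt1*, *Tek* and *Eng* are shown because they belong to 1 gene of each receptor system and hold no annotated exon of their own gene. They are the 250 bases before the transcription start in RefSeq (GRCm38.p6), at chr5:147726012-147726261 on the minus strand for *Flt1*, chr4:94739039-94739288 on the plus strand for *Tek* and chr2:32646345-32646594 on the plus strand for *Eng*. Each is written 5′ to 3′ on the strand of its gene, and capitals mark the letters GGAA or their reverse complement TTCC.
Flt1: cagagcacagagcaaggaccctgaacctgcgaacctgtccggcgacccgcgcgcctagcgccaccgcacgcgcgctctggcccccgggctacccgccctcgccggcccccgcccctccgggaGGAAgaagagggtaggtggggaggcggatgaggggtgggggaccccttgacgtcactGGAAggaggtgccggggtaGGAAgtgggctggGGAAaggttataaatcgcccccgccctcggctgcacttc
Tek: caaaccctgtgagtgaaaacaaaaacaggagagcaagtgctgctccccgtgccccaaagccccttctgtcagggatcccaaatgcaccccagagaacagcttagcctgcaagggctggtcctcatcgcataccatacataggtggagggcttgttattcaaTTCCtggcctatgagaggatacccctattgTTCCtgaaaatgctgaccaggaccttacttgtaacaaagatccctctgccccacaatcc
Eng: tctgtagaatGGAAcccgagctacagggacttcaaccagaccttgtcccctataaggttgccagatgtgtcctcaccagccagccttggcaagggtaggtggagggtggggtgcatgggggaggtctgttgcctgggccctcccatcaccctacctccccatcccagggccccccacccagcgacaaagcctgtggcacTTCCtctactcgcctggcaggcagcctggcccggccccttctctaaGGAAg
The 3 windows hold 4, 2 and 3 such matches. RefSeq windows were matched for 7 of the 10 genes, and all 7 hold the motif, but so do 93.4% of the 32851 windows of this length, so the letters do not set these genes apart. The longer form CCGGAA, which contains the shorter, is on either strand in 12% of all windows and, among the 7 genes, in that of *Kdr*. The letters TATAA are on either strand in 22.8% of windows and in those of *Flt1*, *Eng* and *Egfl7*. A match is a description of the letters and not a binding site.

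*Egfl7* also carries a microRNA inside it. miR-126a-3p, a microRNA known for its abundance in endothelium, lies at chr2:26591402-26591423 on the plus strand (GRCm38.p6) within the body of *Egfl7*, and it is shown with its seed, bases 2 to 8, in capitals because *Egfl7* stood apart from the other members in the results that follow.
mmu-miR-126a-3p: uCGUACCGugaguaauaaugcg
The libraries count RNA by gene and do not measure the mature microRNA.

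The genotype labels were checked first with the targeted gene. *Slc4a4* was at 264 and 268.7 normalized counts in KOb/c replicates 1 and 3, at 675.1, 822.2 and 788.8 in WT replicates 1, 2 and 3, and at 944.8 in the library labelled KOb/c replicate 2. The targeted gene in that library was therefore above every WT value. The count covers all variants of the gene and cannot separate them, but the paper describes NBCe1-B as the sole variant found in heart. Why this library differs from the other KOb/c libraries was not tested. With all libraries the log2 fold change of *Slc4a4* (KOb/c minus WT throughout) was -0.90 ± 0.42 (SE, limma adjusted p = 0.239), and without that library it was -1.51 (limma adjusted p = 0.0121). Results for the endothelial genes are given with and without it. A normalized count is the number of reads on a gene divided by a size factor of its library. The libraries held between 41364857 and 49100802 reads on genes, with each KOb/c library deeper than each WT library, and counting error alone was between 0.995% and 2.47% of the value for the 10 genes. *Myh6*, the main myosin of the adult mouse heart, was between 742963 and 1259230 normalized counts, so that the tissue label was borne out in all 6 libraries.

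All 10 endothelial genes were well detected in each library, from 1320 normalized counts for *Emcn* to 11377 for *Cdh5*, and all passed the filter on low values. They did not lie to one side. In KOb/c hearts *Vwf* and *Flt1* were about 1.436 and 1.414 times their WT means, *Cdh5* and *Tek* were 1.188 and 1.164 times, *Kdr*, *Eng*, *Tie1* and *Pecam1* were between 1.059 and 1.127 times, and *Emcn* and *Egfl7* were 0.871 and 0.736 times their WT means. None of the 10 passed the adjusted threshold of 0.05 with limma, which called 0% of the 16016 genes tested, or with edgeR, which also called 0%. At an unadjusted limma p under 0.05 there were 4 members with higher and 1 with lower values, where 13% of all genes tested were called higher and 10.5% lower. DESeq2, a count model run as an alternative on the recovered reads, called 4 members higher and 1 lower at an adjusted p under 0.05, where it called 6.15% of all genes higher and 3.76% lower, and in either direction 20% of the 5990 genes whose mean reached 1000 normalized counts. Without the library labelled KOb/c replicate 2 it called 2 higher and 1 lower, where 4.94% of all genes were called higher and 2.52% lower. The lowest p that an exact permutation test of 3 against 3 libraries can give is 0.1, so no single gene could reach 0.05 by that test.

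**Figure D1:**
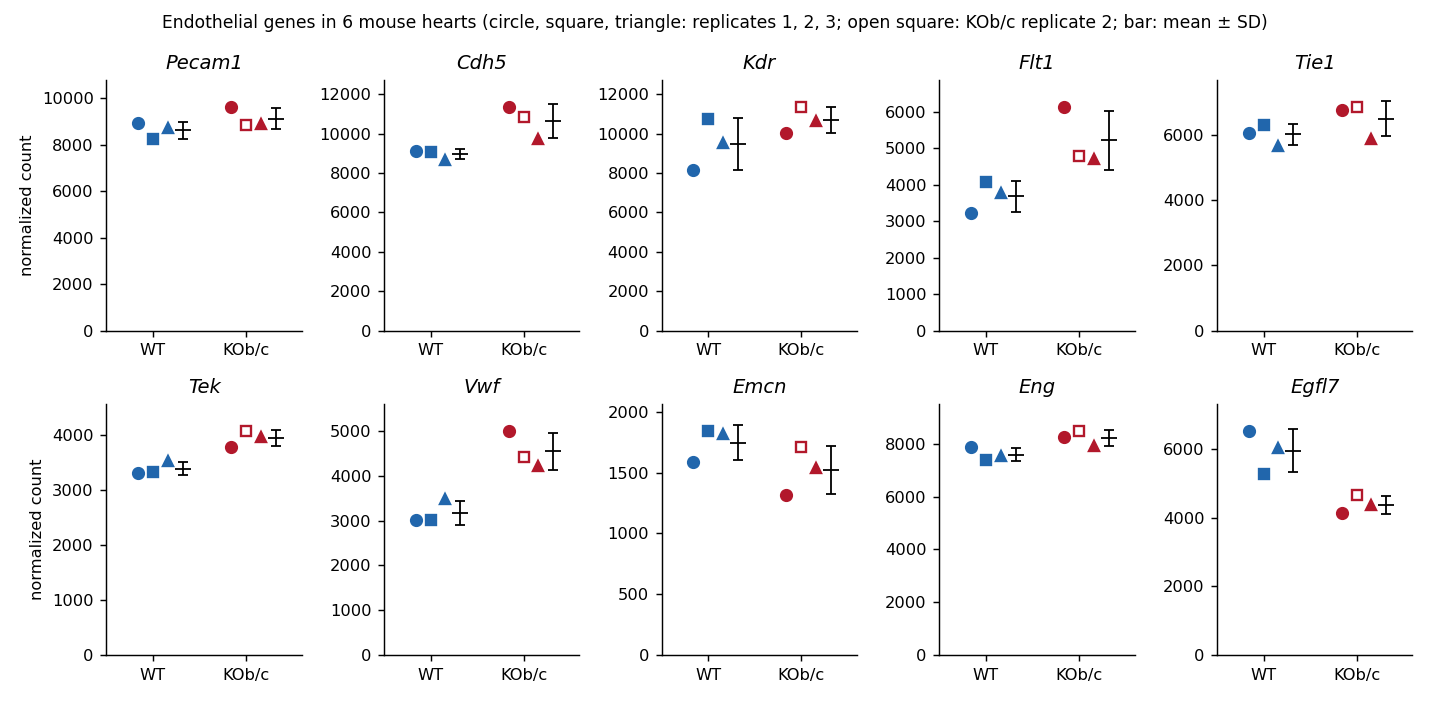
Normalized counts of the 10 endothelial genes in each of the 6 hearts, 1 panel a gene with an axis from 0. Circles, squares and triangles are replicates 1, 2 and 3, the open square is the library labelled KOb/c replicate 2, and bars are the mean ± SD (n = 3). *Vwf*, *Flt1*, *Cdh5*, *Tek* and *Eng* have every KOb/c point above every WT point and *Egfl7* has every KOb/c point below, while the points of the other 4 genes overlap.

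Among the VEGF receptors, *Flt1* (ENSMUSG00000029648, chr5:147561604-147726011, minus strand, GRCm38) was at 6150, 4799 and 4713 normalized counts in KOb/c replicates 1, 2 and 3 and at 3238, 4078 and 3764 in WT replicates 1, 2 and 3. The groups did not overlap, and KOb/c replicate 1 was the highest of the 6 while WT replicate 1 was the lowest. Its log2 fold change was 0.49 ± 0.12 (SE, limma adjusted p = 0.0844) with all libraries and 0.55 without KOb/c replicate 2 (limma adjusted p = 0.13). DESeq2 gave *Flt1* an adjusted p of 0.00232, and of 0.00533 without that library, while the other alternatives gave 0.0733 to 0.279. *Kdr* (ENSMUSG00000062960, chr5:75932827-75978458, minus strand) was at 10031, 11366 and 10635 in KOb/c and at 8136, 10748 and 9544 in WT hearts. Here the groups overlapped, and WT replicate 1 lay well below the other libraries. The log2 fold change of *Kdr* was 0.18 ± 0.10 (SE, limma adjusted p = 0.323), and 0.13 without KOb/c replicate 2. It was 0.07 without WT replicate 1 and 0.275 without WT replicate 2. The ratio of *Flt1* to *Kdr* counts, chosen after the values had been seen, was 0.613, 0.422 and 0.443 in KOb/c and 0.398, 0.379 and 0.394 in WT hearts. The ratios of the groups did not overlap (exact two-sided permutation p = 0.1, the lowest possible), and the 3 WT values lay close to each other.

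The 2 receptors of the angiopoietin system lay on the same side with different spreads. *Tek* (ENSMUSG00000006386, chr4:94739289-94874976, plus strand) was at 3784, 4073 and 3972 normalized counts in KOb/c and at 3312, 3323 and 3528 in WT hearts. Every KOb/c value was above every WT value and the spread within groups was small, at 3943 ± 146.6 against 3388 ± 121.3 (mean ± SD, n = 3 each). Its log2 fold change was 0.22 ± 0.06 (SE, limma adjusted p = 0.0971). *Tie1* (ENSMUSG00000033191, chr4:118471191-118490061, minus strand) was at 6752, 6861 and 5875 in KOb/c and at 6059, 6300 and 5667 in WT hearts, which overlap. The log2 fold change of *Tie1* was 0.11 ± 0.08 (SE, limma adjusted p = 0.428). Without KOb/c replicate 2 the log2 fold changes were 0.20 for *Tek* (limma adjusted p = 0.195) and 0.07 for *Tie1*. DESeq2 called *Tek* with all libraries (adjusted p = 0.0384) but not without KOb/c replicate 2 (0.119), and the other alternatives gave adjusted p from 0.0837 to 0.514. The ratio of *Tek* to *Tie1* was 0.61 ± 0.0596 in KOb/c and 0.565 ± 0.0502 in WT hearts (mean ± SD, n = 3 each, exact two-sided permutation p = 0.4).

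At the junctions, *Cdh5* (ENSMUSG00000031871, chr8:104101625-104144511, plus strand) was at 11377, 10839 and 9711 normalized counts in KOb/c and at 9133, 9060 and 8681 in WT hearts. The groups did not overlap, and the WT hearts lay within a narrow range. The log2 fold change of *Cdh5* was 0.25 ± 0.07 (SE, limma adjusted p = 0.105), and 0.23 without KOb/c replicate 2 (limma adjusted p = 0.195). With DESeq2 the adjusted p of *Cdh5* was 0.0286, and 0.0991 without that library, and it was 0.0871 to 0.381 over the other alternatives. *Pecam1* (ENSMUSG00000020717, chr11:106654217-106750628, minus strand), the other junction protein and the usual stain for capillaries, was at 9639, 8855 and 8874 in KOb/c and at 8919, 8226 and 8698 in WT hearts. These groups overlapped, and the log2 fold change of 0.08 had a 95% interval from -0.065 to 0.23 (limma adjusted p = 0.479). *Eng* (ENSMUSG00000026814, chr2:32646595-32682669, plus strand) was at 8279, 8491 and 7904 in KOb/c and at 7883, 7374 and 7538 in WT hearts. The groups were separated by a narrow gap, with a log2 fold change of 0.11 ± 0.06 (SE, limma adjusted p = 0.29), and of 0.09 without KOb/c replicate 2. When all libraries were rescaled to the same total, which moved the median of all genes to -0.08, the log2 fold changes of *Eng*, *Tie1*, *Pecam1* and *Kdr* were 0.04, 0.04, 0.01 and 0.11. *Eng* shares 61 of its 4048 exon bases with *Fpgs* on the opposite strand. Whether the counting used strand is not given in the sources used here, so the reads of those bases are uncertain, and *Fpgs* itself had a log2 fold change of -0.12 ± 0.12 (SE).

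*Vwf* (ENSMUSG00000001930, chr6:125546774-125686679, plus strand) had the largest log2 fold change of the 10 with all libraries, and *Flt1* the largest without the library labelled KOb/c replicate 2. It was at 5008, 4432 and 4214 normalized counts in KOb/c and at 3014, 3015 and 3479 in WT hearts, so that every KOb/c heart was above every WT heart. The log2 fold change was 0.52 ± 0.09 (SE, limma adjusted p = 0.0815), and 0.54 without KOb/c replicate 2 (limma adjusted p = 0.128). DESeq2 gave *Vwf* an adjusted p of 6.54e-05, and of 0.000753 without that library, while the other alternatives gave 0.07 to 0.275. Megakaryocytes and platelets also make *Vwf*. Of 8 of their marker genes, 7 had a log2 fold change below 0, their summed level ran from 598.4 to 1767 normalized counts in KOb/c and from 832.1 to 1770 in WT hearts, and none was at 0 in a library. *Gp1ba*, the platelet receptor for von Willebrand factor, was the 1 gene above 0, at 123.1, 148.9 and 103.8 in KOb/c and 92.2, 101.9 and 81.46 in WT hearts, with groups apart. The part of platelets in the *Vwf* values was not tested.

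*Egfl7* (ENSMUSG00000026921, chr2:26580014-26593120, plus strand) ran the other way. It was at 4130, 4658 and 4367 normalized counts in KOb/c and at 6533, 5284 and 6047 in WT hearts, and every KOb/c value was below every WT value. The log2 fold change was -0.44 ± 0.09 (SE, limma adjusted p = 0.0815), and -0.48 without KOb/c replicate 2 (limma adjusted p = 0.128). DESeq2 gave it an adjusted p of 0.000665, and of 0.00126 without that library, while the other alternatives gave 0.07 to 0.275. *Egfl7* shares 264 of its 3581 exon bases (7.37%) with *Gm20532* on the same strand and 64 (1.79%) with *Agpat2* on the opposite strand, whose log2 fold change was -0.07 ± 0.15 (SE). How reads in those bases were assigned is not given in the sources used here, so its count is to that extent uncertain. *Emcn* (ENSMUSG00000054690, chr3:137341067-137432185, plus strand), the member with the lowest counts, was at 1320, 1710 and 1538 in KOb/c and at 1586, 1844 and 1815 in WT hearts. The groups overlapped through the library labelled KOb/c replicate 2, which was above WT replicate 1. The log2 fold change of *Emcn* was -0.20 ± 0.11 (SE, limma adjusted p = 0.278), and -0.29 without that library (limma adjusted p = 0.181). Without KOb/c replicate 1 it was -0.105.

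Over the list, 8 genes had higher and 2 had lower means in KOb/c hearts. In 5 genes every KOb/c value was above every WT value and in 1 it was below, where 15.6% of all genes were separated upward and 14.6% downward, and, of the genes whose mean reached 1000 normalized counts, 25.8% and 18.1%. Without the library labelled KOb/c replicate 2 these counts were 5 and 2, against 20.7% and 19.4% of all genes. The median log2 fold change of the members was 0.15 and that of all genes tested was -0.004. The summed counts of the 10 genes were between 61802 and 66469 in KOb/c and between 57812 and 59253 in WT hearts, so that the sums did not overlap although the genes moved in both directions. The ratio of *Vwf* to *Egfl7*, chosen after seeing the values as the members with the highest and lowest fold change, was 1.21, 0.951 and 0.965 in KOb/c and 0.461, 0.571 and 0.575 in WT hearts.

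**Figure D2:**
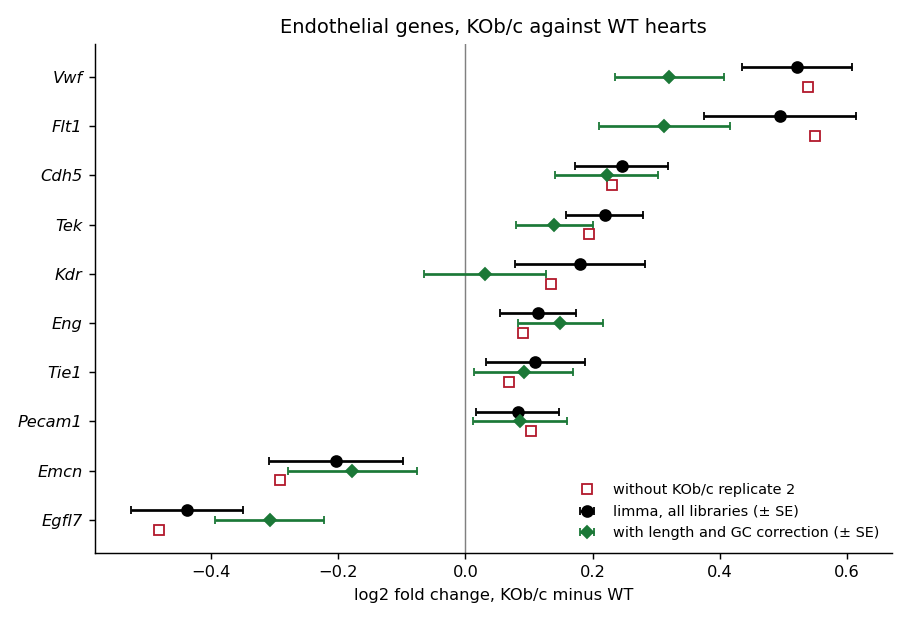
Log2 fold change (KOb/c minus WT, horizontal axis) of each endothelial gene. Black circles are limma on all 6 libraries and green diamonds the same once transcript length and GC had been corrected for, both with bars of ± 1 SE, and red open squares leave out the library labelled KOb/c replicate 2. *Vwf* at 0.52 and *Egfl7* at -0.44 mark the ends of the order, and the corrected values of 0.32 and -0.31 lie closer to 0.

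Transcript length moved with these differences. The longest annotated transcripts of the members run from 1865 nt in *Egfl7* to 8834 nt in *Vwf*, followed by 6895 nt in *Flt1*, around a median of 3188 nt for all genes tested. Across the 10 genes, which are not independent replicates and share the same 6 libraries, Spearman's rho between length and log2 fold change was 0.818. Across all 15983 genes with a known length it was 0.455, so the trend was not particular to endothelium. All 5 members over 4000 nt had higher means in KOb/c hearts, with a median log2 fold change of 0.22. So did 4116 of all 5605 genes over 4000 nt, which had a median of 0.13. The 5 shorter members had a median of 0.08 and included both *Emcn* and *Egfl7*, where all shorter genes had a median of -0.08. After each library had been corrected for length and GC content, rho was 0.028 across all genes and 0.6 across the members. The corrected log2 fold changes were 0.32 ± 0.09 for *Vwf*, 0.31 ± 0.10 for *Flt1*, 0.22 ± 0.08 for *Cdh5*, 0.15 ± 0.07 for *Eng* and 0.14 ± 0.06 for *Tek* (± SE). *Egfl7* was at -0.31 ± 0.09 and *Emcn* at -0.18 ± 0.10 after the correction, and *Kdr* was closest to 0 at 0.03 ± 0.10. The median over the 10 genes was 0.12 after it. Thus the members at both ends kept their side while the size of their differences was smaller. For *Kdr* the sign turned, to -0.02, when the correction was made without KOb/c replicate 2.

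**Figure D3:**
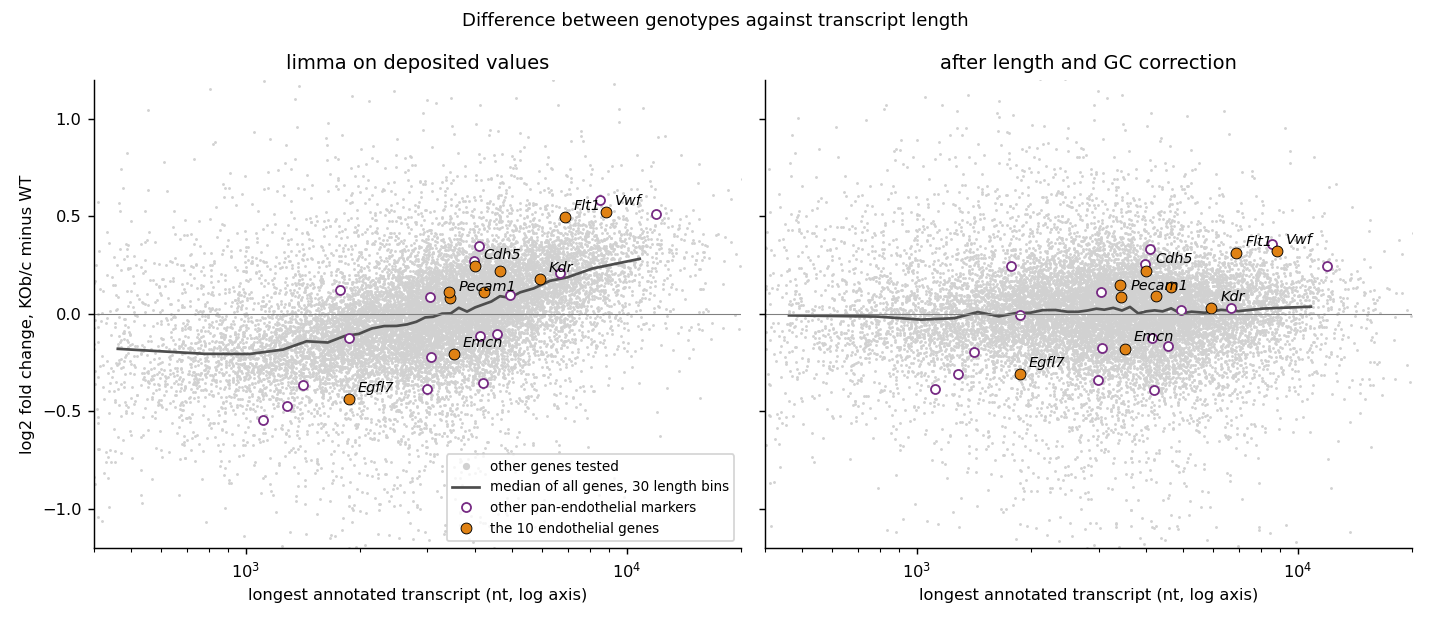
Log2 fold change (KOb/c minus WT) against the longest annotated transcript in nt on a log axis, before (left) and after (right) correction for length and GC content. Gray points are all genes tested, the line is their median in 30 length bins, orange circles are the 10 endothelial genes and open circles 17 other pan-endothelial markers, and genes beyond the axis limits are not drawn. Before correction the line rises with length, and *Egfl7* and *Vwf* lie beyond it at the short and the long end. After correction the line is flat near 0 and both genes remain away from it.

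Levels between genes were compared per kb of longest transcript. In WT hearts *Egfl7* was the most abundant at 3193 ± 338 normalized counts per kb (mean ± SD, n = 3), followed by *Pecam1* at 2503 ± 103, *Cdh5* at 2242 ± 60.7 and *Eng* at 2220 ± 75.9. *Kdr* at 1600 ± 221 and *Tie1* at 1419 ± 75.5 came next, then *Tek* at 728 ± 26.1, *Flt1* at 536 ± 61.5, *Emcn* at 497 ± 40.2 and *Vwf* at 359 ± 30.4. Neighbours in this order did not overlap except *Cdh5* with *Eng*, *Kdr* with *Tie1*, and *Flt1* with *Emcn*. In KOb/c hearts *Cdh5* (2664 ± 213 per kb) and *Pecam1* (2651 ± 130) had the highest means, *Eng* and *Egfl7* came after them, *Egfl7* at 2351 ± 142, and *Vwf* at 515 ± 46.4 and *Emcn* at 432 ± 55.5 had the lowest. In KOb/c hearts the neighbours *Cdh5* and *Pecam1*, *Eng* and *Egfl7*, *Tek* and *Flt1*, and *Vwf* and *Emcn* overlapped, as did *Cdh5* and *Eng*. The order depends on the length used. Per kb of the union of exons, which is longer for genes with many transcript forms, *Cdh5* led in WT hearts at 2131 ± 57.7, and *Egfl7* followed *Eng* at 1663 ± 176.

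The members were also compared with each other from heart to heart. Over the 6 libraries, 29 of the 45 pairs had a Pearson correlation of log2 values above 0, with a median of 0.44. These values hold the difference between genotypes, and after the group means had been subtracted the median was 0.04, with 24 of 45 pairs above 0. With 3 hearts a group these are descriptions and no test was made. The highest of the 45 values within groups was that of *Cdh5* and *Tie1*, with r = 0.887, and the lowest that of *Pecam1* and *Emcn*, with r = -0.87. Both were picked as the ends of the range. The genes of the whole table whose 6 values were most like the mean standardized profile of the members were *Helz*, *R3hdm1*, *Armcx4*, *Gatad2b* and *Sap130*, with r between 0.986 and 0.996 among 11922 genes whose mean reached 100 normalized counts.

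Another 17 genes known as pan-endothelial markers did not lie to one side either. Of these, 8 had higher and 9 lower means in KOb/c hearts, with a median log2 fold change of -0.10, and of -0.01 after the correction for length and GC content. *Adgrf5*, an adhesion receptor with a transcript of 8535 nt, had a log2 fold change of 0.58 ± 0.16, and *Mmrn2*, a matrix protein, one of 0.27 ± 0.06 (± SE). *Ecscr*, a surface sialomucin with a transcript of 1114 nt, was at -0.54 ± 0.12 and *Ushbp1* at -0.35 ± 0.09. The corrected value of *Adgrf5* was 0.36. Groups were apart upward in 5 of the 17 genes and downward in 4, against 15.6% and 14.6% of all genes. Of genes whose mean reached 1000 normalized counts, 25.8% and 18.1% were apart. The 4 named genes were taken from those with groups apart, and none passed the adjusted threshold with limma or edgeR. DESeq2 called 4 of the 17 higher and 4 lower, where it called 6.15% and 3.76% of all genes and, in either direction, 20% of those whose mean reached 1000 normalized counts. Without KOb/c replicate 2 it called 3 higher and 5 lower, where 4.94% of all genes were called higher and 2.52% lower. Their summed level was between 56531 and 66619 normalized counts in KOb/c and between 54700 and 60292 in WT hearts, which overlap. Over these 17 genes and the 10 members together, Spearman's rho between length and log2 fold change was 0.757, and 0.533 after the correction.

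The ligands and partners of the receptors were then set beside them, again with no gene past the adjusted limma or edgeR threshold. Among 8 VEGF ligands and co-receptors, 4 were higher and 4 lower with a median log2 fold change of -0.01. *Nrp1*, a VEGF co-receptor, was at 6784, 6090 and 5687 normalized counts in KOb/c and at 3719, 5244 and 4557 in WT hearts, with a log2 fold change of 0.47 ± 0.12 (SE). *Flt4*, the receptor of lymphatic vessels, had a log2 fold change of 0.26 ± 0.08, and *Vegfa*, the main ligand of *Kdr* and *Flt1*, one of -0.17 ± 0.08 (± SE). These 3 were named as the genes with groups apart, 2 upward and 1 downward of 8, against 15.6% and 14.6% of all genes. The ligand was on the other side from *Nrp1* and *Flt4*, and *Flt4* was at 0.12 when corrected for length and GC. Among 7 ligands and partners of the TIE receptors 3 were higher and 4 lower, with a median log2 fold change of -0.105. Groups were apart upward in 2 of the 7 and downward in 1, against 15.6% and 14.6% of all genes. *Ptprb* (VE-PTP), the phosphatase that acts on *Tek*, had a log2 fold change of 0.51 ± 0.14 with a transcript of 11911 nt, and *Svep1*, a matrix ligand of *Tie1*, one of 0.36 ± 0.10 with 11629 nt (± SE). Corrected for length and GC content these were 0.24 and 0.10. *Tnip2*, the gene apart downward, was at -0.105 ± 0.076 (SE), and at 0.003 after the correction. Of 16 genes of the endoglin and BMP9 pathway, 12 were higher, with a median log2 fold change of 0.14, where 49.2% of all genes were higher. Groups were apart upward in 7 of them, where 15.6% of all genes were, and 25.8% of genes whose mean reached 1000 normalized counts. *Bmpr2*, its type II receptor, was at 0.33 ± 0.10, *Smad4* at 0.24 ± 0.07 and *Smad5* at 0.18 ± 0.06, while *Id3*, a target gene of the pathway, was at -0.28 ± 0.10 (log2 fold change ± SE). Corrected for length and GC they were at 0.09, 0.25, 0.02 and -0.11. *Smad5* turned to -0.02 when the correction was made without KOb/c replicate 2.

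Inside the cell, the partners of VE-cadherin were set beside *Cdh5*. Of 10 junction genes 7 were higher, where 49.2% of all genes were. In 5 the groups were apart upward and in none downward, against 15.6% upward over all genes and 25.8% over those whose mean reached 1000 normalized counts, and the median log2 fold change was 0.20, and 0.125 after correction. *Tjp1* (ZO-1) was at 0.53 ± 0.11, *Jup* (plakoglobin) at 0.30 ± 0.08, *Ctnnd1* (p120-catenin) at 0.28 ± 0.08 and *Ctnna1* at 0.22 ± 0.09 (± SE), and corrected at 0.34, 0.35, 0.11 and 0.20. Cardiomyocytes also express these 4 genes at their intercalated discs, and cell types cannot be told apart in whole hearts. Of 21 endothelial transcription factors, 12 were higher and 9 lower with a median of 0.09, and of 0.01 after correction. *Epas1* (HIF-2α) had a log2 fold change of 0.54 ± 0.12, *Foxo1* one of 0.27 ± 0.10 and *Mef2c* one of 0.26 ± 0.09, while *Lyl1* was at -0.27 ± 0.09 (± SE). Corrected for length and GC these 4 were at 0.43, 0.04, 0.13 and -0.14. Of 11 genes of the Notch pathway, 8 were higher, with *Notch1* at 0.35 ± 0.09, *Rbpj* at 0.24 ± 0.08 and *Hey2* at 0.23 ± 0.14 (log2 fold change ± SE), and at 0.14, 0.13 and 0.29 after the correction.

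Genes of endothelial subtypes and functions were described in the same way. Of 9 genes for storage of von Willebrand factor and for haemostasis 6 were higher, on the side of *Vwf*, and 3 lower, with a median log2 fold change of 0.11. *Cd63*, a protein of the storage granule, was at -0.32 ± 0.10, *Thbd* (thrombomodulin) at 0.23 ± 0.09 and *Procr* at -0.39 ± 0.20 (log2 fold change ± SE). Corrected for length and GC these 3 were at -0.25, 0.22 and -0.27. Of 12 genes for lipid and water transport across capillaries 6 were higher and 6 lower. *Cd36*, the fatty acid carrier, had a log2 fold change of 0.30 ± 0.10, and the binding proteins *Fabp5* and *Fabp4* had -0.51 ± 0.13 and -0.30 ± 0.10 (± SE). Which cells of the whole hearts these counts came from cannot be told. Of 8 arterial genes 4 were higher and 4 lower, with a median log2 fold change of 0.01, and of -0.12 without KOb/c replicate 2. *Sema3g* was at 0.40 and *Efnb2* at 0.19 (0.10 when corrected). These were the 2 of the 8 with groups apart, both upward, against 15.6% of all genes. Of 8 venous and endocardial genes 4 were higher and 4 lower, with a median of 0.08. *Nfatc1* was at 0.24 with groups apart, and *Ephb4* at 0.21 with groups that overlapped. The 6 lymphatic genes measured were all higher, with a median log2 fold change of 0.30, and of 0.26 after correction, and they summed to 6496 to 7184 normalized counts in KOb/c and 4579 to 5636 in WT hearts. *Reln*, with a transcript of 11699 nt, was at 0.78 ± 0.16 and *Prox1*, the lymphatic master regulator, at 0.53 ± 0.14 (log2 fold change ± SE). Corrected, *Reln* was at 0.52 and *Prox1* at 0.32. Cardiomyocytes express *Prox1* as well. Groups were apart upward in 3 of the 6 genes, against 15.6% of all genes and 25.8% of those whose mean reached 1000 normalized counts.

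**Figure D4:**
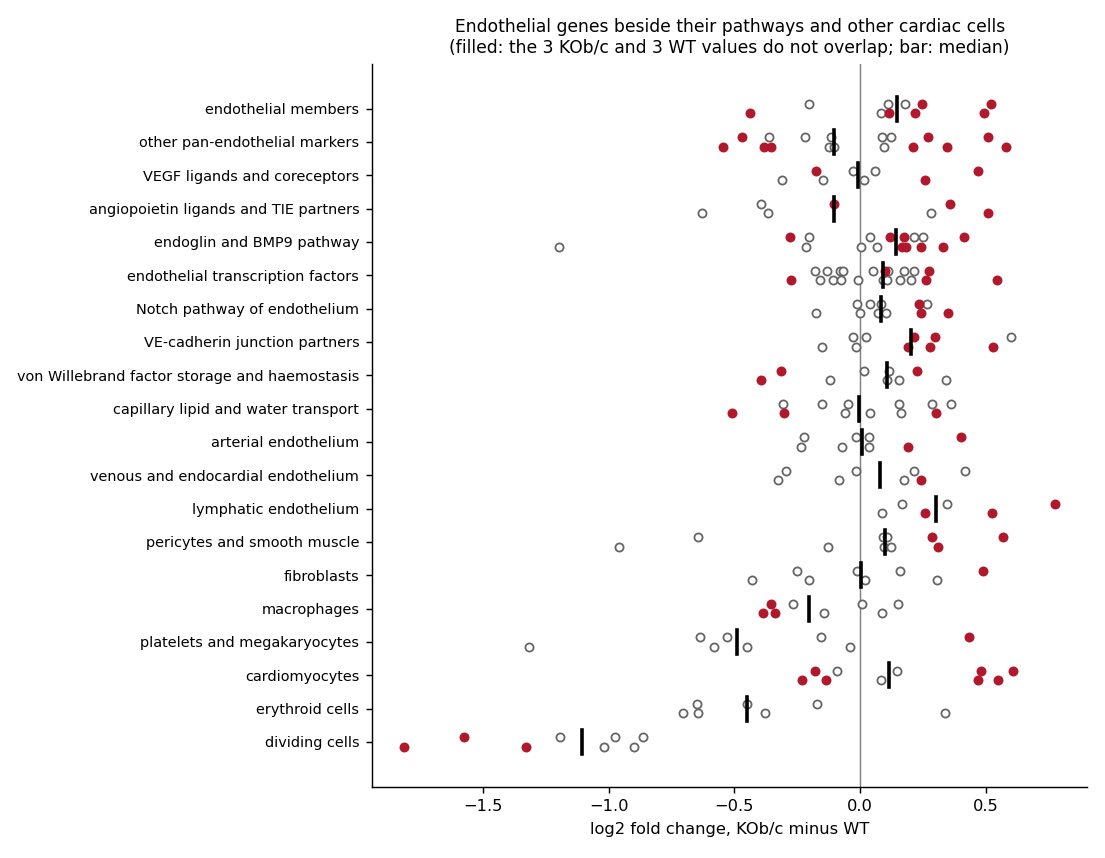
Log2 fold change (KOb/c minus WT, horizontal axis) of each measured gene in 20 lists (rows). Filled points are genes whose 3 KOb/c and 3 WT values do not overlap, open points overlap, and black bars are list medians. The 10 members range from -0.44 to 0.52, and only the lists of lymphatic endothelium and of dividing cells have every gene on one side of 0.

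The other cells of the heart are given as measured values beside the endothelial genes, and their part in the results was not tested. Cardiomyocyte genes summed to between 3662058 and 4171712 normalized counts in KOb/c and between 3167893 and 3311239 in WT hearts, and of the 10 genes 6 were higher and 4 lower, with a median log2 fold change of 0.12. The long transcripts *Ryr2*, *Myh6*, *Atp2a2* and *Ttn* had log2 fold changes of 0.61, 0.55, 0.48 and 0.47. *Tnni3*, *Myl2* and *Myl3*, named after their values were seen, were at -0.13, -0.18 and -0.23. These 7 were the genes of the 10 with groups apart, 4 upward and 3 downward, against 15.6% and 14.6% of all genes. Corrected for length and GC, *Ryr2*, *Myh6*, *Atp2a2* and *Ttn* were at 0.32, 0.42, 0.34 and 0.35. After the same correction *Tnni3* was at 0.06, *Myl2* at -0.01 and *Myl3* at -0.07, and the median of the 10 genes was 0.23. Of 10 pericyte and smooth muscle genes 7 were higher and 3 lower (median 0.10), and of 8 fibroblast genes 4 were higher and 4 lower (median 0.002). *Abcc9*, *Pdgfrb* and *Notch3* were at 0.57, 0.29 and 0.31 and *Pdgfra* at 0.49, and at 0.37, 0.19, 0.13 and 0.31 after the correction. They were the genes of these lists with groups apart, 3 of 10 and 1 of 8, all upward, against 15.6% of all genes. *Tagln* at -0.65, *Cnn1* at -0.96 and *Postn* at -0.43, named after their values were seen, were lower with overlapping groups. Of 8 macrophage genes 3 were higher and 5 lower, with a median of -0.20, and *C1qa*, *C1qb* and *C1qc* were at -0.35, -0.39 and -0.34. Corrected for length and GC these 3 were at -0.16, -0.20 and -0.16. Erythroid genes varied widely within both groups, from 29485 to 133694 normalized counts in KOb/c and from 52383 to 117151 in WT hearts. Of 8 genes of dividing cells all were lower, with a median log2 fold change of -1.11, and their sums of 790 to 1096 in KOb/c and 1129 to 3812 normalized counts in WT hearts did not overlap. The median was -0.65 without WT replicate 1 and -1.60 without WT replicate 2. WT replicate 1, in which *Flt1* and *Kdr* were lowest, held the highest sum of these genes. *Birc5*, *Ccnb1* and *Cdk1* were at -1.81, -1.58 and -1.33. No gene of any list was at 0 in a library.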

How the data were processed

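RNAseq was carried out on total RNA from the hearts of 3 KOb/c and 3 WT mice, isolated with a commercial kit and read in pairs on a HiSeq instrument. The submitters' processing notes name Trimmomatic 0.36, STAR 2.5.2b, featureCounts, Subread 1.5.2, DESeq2 and GRCm38. The annotation and the handling of strand and of multiply mapped reads are not given in the sources used here. The deposited values are a normalized signal, in which the authors scaled each library's read counts by its size factor (0.962 to 1.128) and not by gene length. At a tolerance of 0.01, 100% of values in each library came out as whole reads. Genes were named with GENCODE M21 (15985 of 16018 identifiers), and length and GC were taken from the longest transcript (99.8%). Promoter and microRNA sequences are from RefSeq.

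Genotypes and replicate numbers came from the sample labels. log2(normalized count + 1) was compared with limma 3.58.1 (R 4.3.3) with a trend in the variance, two-sided, in the 16016 genes that averaged 10 or more, and p-values were adjusted by Benjamini-Hochberg over all of them. Single genes were also compared by exact permutation. Fold changes on this scale understate those of low genes. The length and GC correction takes the difference of each library from the mean of a gene, fits it with splines (5 degrees of freedom) and subtracts the fit. edgeR 4.0.16 and DESeq2 1.42.0 were run on the recovered reads as alternatives, beside other pseudocounts, filters, scalings, weights and left-out libraries. Tested on simulated counts for KOb/c against WT with 200 of 16016 genes changed 2-fold, limma recovered 75%, edgeR 76.5% and DESeq2 75.5%. Their false calls numbered 2, 2 and 15. Recovery of smaller changes was not tested, and the endothelial members were at 0.736 to 1.436 times their WT means. Counting error covers sampling of reads only, and p-values measure the spread between these hearts.

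The members and the gene lists were chosen with earlier results of these data known. From each other list at most 4 genes are named, those with the lowest unadjusted p among genes with groups apart, and where there were fewer than 2 of these, the gene with the highest mean.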

Additional observations from a re-analysis of the deposited data

How the results depend on the processing

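Fitted with 21 alternatives each, the log2 fold changes of the 10 endothelial genes kept their direction and their side of the threshold in 201 of 210 values. Most of these alternatives called 0 genes in the whole table, so that there only the direction of a member could change. DESeq2 brought 5 members past the threshold, and 3 without the library labelled KOb/c replicate 2, where limma and edgeR called 0. *Kdr* turned to -0.017 with the length and GC correction without that library. The cause was not tested. Over all genes, limma called 0, DESeq2 1587, DESeq2 without KOb/c replicate 2 1195, and the length and GC correction without it 2. Leaving out each library in turn gave 0 to 3 calls, with 3 without KOb/c replicate 2. The number of genes at an unadjusted p under 0.05 was 3764, 2311 after the length and GC correction, 2209 after it without KOb/c replicate 2, and 2455 to 3606 with 1 library left out, the lowest without WT replicate 1. *Slc4a4* ran from -1.51 to -0.59 with 1 library left out, and was -1.72 with the correction and -1.52 with DESeq2, both without KOb/c replicate 2. *Tnip2*, at -0.11, turned to 0.003 with the correction, with or without the replicate block, and *Smad5* to -0.018 with the correction without KOb/c replicate 2. *Col3a1*, at 0.02, turned to -0.054 on rescaling to equal totals, -0.026 with quantile normalization, -0.10 with the correction, with or without the block, -0.15 with the correction and -0.028 with DESeq2 without KOb/c replicate 2, and ran from -0.035 to 0.122 with 1 library left out.

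Whether hearts with the same replicate number form pairs is not given by the sample labels. The deviations of hearts with the same number had correlations of 0.227, 0.072 and -0.029. Those of hearts with different numbers ran from -0.183 to 0.155. With 3 hearts a group these values cannot decide whether the samples are paired. With the replicate number as a block, limma called 0 genes and found 3924 genes at an unadjusted p under 0.05.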
